A study of Homo sapiens with 6 samples.

Results

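Inflammasome and pyroptosis genes were examined in MDA-MB-231 cells, an established human breast cancer cell line of mesenchymal type, after treatment with the DNA methyltransferase inhibitor guadecitabine (SGI-110). The 9 genes were fixed by name: the DNA sensors AIM2 and IFI16, the NLR sensors NLRP1 and NLRP3, the adaptor PYCARD (ASC), the caspases CASP1 and CASP4, and the gasdermins GSDMD and DFNA5 (now GSDME). All 9 of 9 symbols were found among the 17100 transcripts of the deposited count table, and 8 of them had enough reads to be among the 13322 genes tested. The 3 vehicle libraries came from cells given vehicle, and the 3 guadecitabine libraries from cells given 1 µM of the drug during 96 h and then cultured without it for 24 h. Both groups are the same line, for which the labels name no engineered allele and no other agent. The RNA came from 3 independent experiments, and the labels do not say whether vehicle and guadecitabine libraries of the same number share one. A single line is a limited model, since the immune cells in which inflammasomes are best known are not part of it.

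An inflammasome is a cytosolic complex in which a sensor of foreign or misplaced DNA, or of cell damage, recruits the adaptor ASC, which in turn gathers and activates caspase-1. Caspase-1 matures the cytokines IL-1β and IL-18 and cleaves gasdermin D, whose free end forms pores in the cell membrane and leads to the lytic death called pyroptosis. Caspase-4 reaches gasdermin D without a sensor complex, by binding bacterial lipopolysaccharide itself, and gasdermin E, once cleaved, turns apoptosis into lytic death. Promoter methylation of several of these genes, PYCARD among them, has been described in tumours, which makes them of interest under a methyltransferase inhibitor.

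Sequencing depth ranged from 8792127 counts in guadecitabine replicate 2 to 22277442 counts in vehicle replicate 3. Vehicle replicate 3 stood apart, with 20 transcripts at 0 counts against 1593 to 2517 in the other 5 libraries. Over 533 genes that were silent in vehicle replicates 1 and 2 and had reads after guadecitabine, it held a median of 7.10 counts per kb of counted exon. For named genes with few reads that were tested, the change is therefore also given without this library. The line's label was checked against marker genes. Of the mesenchymal markers, vimentin (VIM) had between 32223 and 82480 counts, and of the 5 tested 2 were higher after guadecitabine (VIM and CD44) and 2 lower (AXL and CAV1). Of the 8 luminal markers, the hormone receptor genes ESR1 and PGR had at most 1 count outside vehicle replicate 3, but the keratin gene KRT8 had 8244 to 26328 counts and ERBB2 552 to 1974. Of the 5 luminal markers tested, 1 was higher (GATA3) and 3 were lower (EPCAM, KRT8 and ERBB2). Of the myeloid markers, PTPRC, SPI1 and AIF1 had at most 3 counts in each library other than vehicle replicate 3. The summed level of the 9 myeloid markers in the table was 1757 to 2041 reads per kb in vehicle and 4317 to 4419 after guadecitabine. Most of this sum was CD68, with 1578 to 1782 reads per kb in vehicle and 3942 to 4112 after guadecitabine. Among the 5 tested myeloid markers, 2 were higher (CD68 and FCER1G) and 1 was lower (CSF1R), while CD14 and LYZ were not called. The part of these marker changes in the members' changes was not tested.

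For the members that changed most, the sequence just upstream of the gene is shown, because guadecitabine releases decitabine, which is built into replicating DNA and traps DNA methyltransferases, so that CpG methylation is not copied to new strands. The sequences are from RefSeq on GRCh38.p14, written 5′ to 3′ on the strand of the gene and ending before the transcript starts, with CpG sites in capitals. The promoter table held windows for 6 of the 9 members, and CASP1, NLRP1 and GSDMD had none. The first 3 sequences belong to the genes that were higher after guadecitabine and the last to PYCARD, which was lower.
CASP4, chr11:104968599-104968824, minus strand: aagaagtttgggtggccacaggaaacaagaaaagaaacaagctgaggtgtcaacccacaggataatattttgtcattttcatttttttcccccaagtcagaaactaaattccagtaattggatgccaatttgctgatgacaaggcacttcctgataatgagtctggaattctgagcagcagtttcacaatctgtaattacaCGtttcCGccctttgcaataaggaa
NLRP3, chr1:247415923-247416155, plus strand: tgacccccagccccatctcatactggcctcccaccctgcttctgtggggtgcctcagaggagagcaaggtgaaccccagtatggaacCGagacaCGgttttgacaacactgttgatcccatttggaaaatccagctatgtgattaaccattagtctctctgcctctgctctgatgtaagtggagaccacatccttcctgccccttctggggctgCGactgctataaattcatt
AIM2, chr1:159076858-159077016, minus strand: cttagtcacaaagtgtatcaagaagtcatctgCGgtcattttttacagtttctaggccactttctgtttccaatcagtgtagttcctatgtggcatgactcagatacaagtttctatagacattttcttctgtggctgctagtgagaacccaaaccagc
PYCARD, chr16:31202777-31203010, minus strand: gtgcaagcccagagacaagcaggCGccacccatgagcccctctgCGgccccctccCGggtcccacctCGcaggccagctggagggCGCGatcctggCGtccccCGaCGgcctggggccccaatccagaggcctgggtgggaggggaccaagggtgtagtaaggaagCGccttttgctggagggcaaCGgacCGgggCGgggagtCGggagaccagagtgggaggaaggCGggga
The printed stretches stop at the deposited start where it lies upstream of the RefSeq start, so that the AIM2 stretch has 159 bases with 1 CpG site and the PYCARD stretch 234 bases with 15. Over the full 250 bases before the RefSeq start site, CASP4 and AIM2 held 2 CpG sites each and NLRP3 held 3, where the median over all 35116 windows was 11. At least as many CpG sites were found in 85.3% of all windows for CASP4 and AIM2 and in 77.1% for NLRP3. PYCARD held 16 CpG sites, which 41.0% of windows reached. DFNA5 held 28, which 15.9% of windows reached, although its window belongs to a start site inside the deposited gene, downstream of the deposited start. The windows of IFI16 held 0 and 3. A match to the core of the interferon-stimulated response element (GAAANNGAAA, searched on both strands) was found in AIM2 alone among the members' 7 windows, as TTTCTGTTTC starting 190 bp before the start site, and in 3.02% of all windows. These are descriptions of sequence, and methylation was not analysed here.

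In vehicle, the members differed widely in level. Levels are given as normalized reads per kb of counted exon, which allows genes of different length to be set side by side. GSDMD was the highest with 818 ± 186 reads per kb (SD, n = 3), and PYCARD followed with 688 ± 60.4. IFI16 had 562 ± 60.3 and DFNA5 had 501.5 ± 4.44. The libraries of GSDMD and PYCARD overlapped, as did those of IFI16 and DFNA5, so that the order within these pairs is not set beyond their spread. CASP4 was at 189 ± 14.9, AIM2 at 112 ± 8.45 and NLRP1 at 81.9 ± 9.43, with no overlap between one and the next. NLRP3 had 13.3 ± 2.07 reads per kb and CASP1 6.78 ± 7.87, with overlapping libraries. That overlap came from vehicle replicate 3 alone, since CASP1 had 2.89 and 1.60 reads per kb in vehicle replicates 1 and 2, with a mean of 2.25, and NLRP3 had 11.3 and 13.2. The gasdermins, the adaptor and IFI16 stood above at least 77.4% of all transcripts in both groups, whereas CASP1 stood above 24.2% after guadecitabine.

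**Figure D1:**
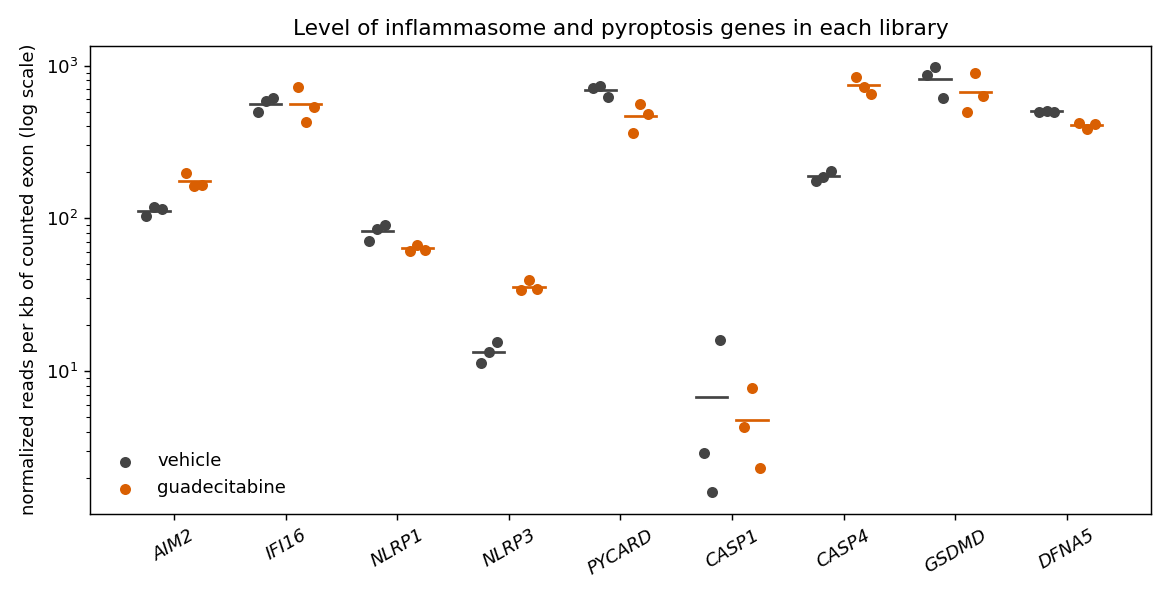
Normalized reads per kb of counted exon (log scale) of the 9 genes in each of the 3 vehicle (grey) and 3 guadecitabine (orange) libraries, with the mean as a line. CASP4 moved from 189 to 740 reads per kb and NLRP3 from 13.3 to 35.7, while the groups of IFI16, GSDMD and CASP1 overlapped.

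After guadecitabine, 3 of the 8 tested members were higher and 3 were lower (edgeR quasi-likelihood test, Benjamini-Hochberg adjusted p below 0.05). CASP4, NLRP3 and AIM2 rose, by 3.91-fold, 2.67-fold and 1.57-fold. PYCARD, NLRP1 and DFNA5 fell, to levels 1.48-fold, 1.30-fold and 1.23-fold below vehicle, and IFI16 and GSDMD did not pass the test. Over all genes tested, 37.7% passed this threshold, 19.3% as higher and 18.4% as lower. The median log2 fold change was -0.14 over the 8 members and 0.02 over all genes. The groups did not overlap in 6 of the 8 members, against 51.7% of all genes. The members were picked when earlier results from these data were already known, so these shares cannot show an excess of changes among them. In these cultures, a change in RNA per cell cannot be told apart from a change in the share of cells that express a gene.

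**Figure D2:**
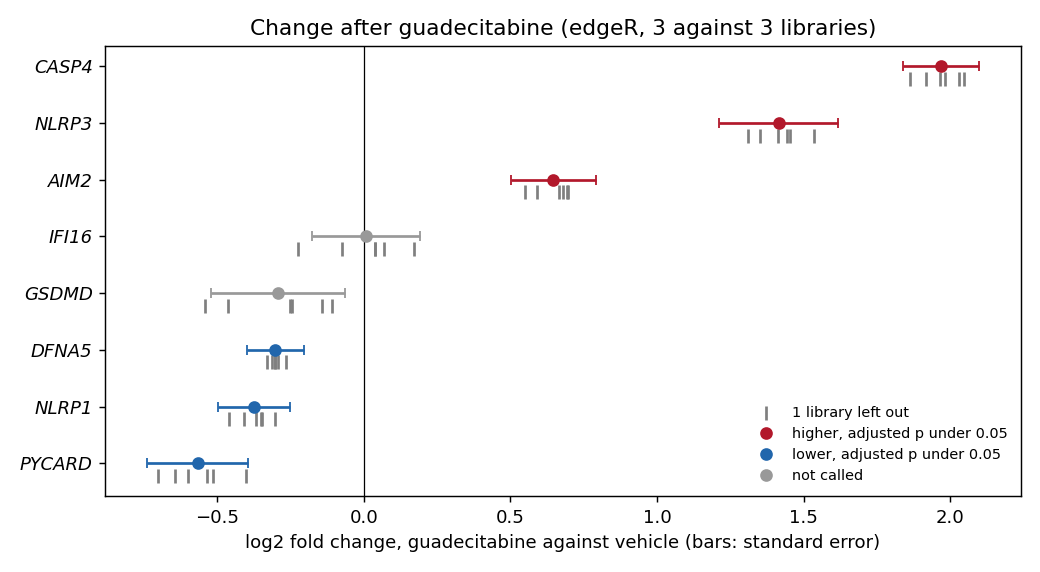
Log2 fold change of the 8 tested genes, guadecitabine against vehicle, with its standard error as a bar, in red for higher, blue for lower and grey for not called. Grey ticks are the values of 6 fits, each without 1 library, which ran from 1.86 to 2.05 for CASP4 and from -0.22 to 0.17 for IFI16.

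Of the sensors of DNA, AIM2 forms an inflammasome around double-stranded DNA in the cytosol. AIM2 (NM_004833) lies at chr1:159032275-159046647 on the minus strand of hg19. It had 160, 167 and 221 counts in vehicle replicates 1, 2 and 3 and 361, 118 and 244 counts in guadecitabine replicates 1, 2 and 3. Normalized for depth, these were 153, 177 and 171 in vehicle and 293, 241 and 247 after guadecitabine. Each guadecitabine library was above each vehicle library, although guadecitabine replicate 2, the shallowest, had the fewest raw counts. The log2 fold change was 0.65 (SE 0.144, adjusted p = 0.00722). With 1 library left out it stayed between 0.55 and 0.70 and passed the threshold in 6 of 6 fits.

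IFI16 (NM_005531), a related DNA sensor found largely in the nucleus, lies next to AIM2 at chr1:158979682-159024945 on the plus strand. Its normalized counts were 1351, 1593 and 1665 in vehicle and 1991, 1166 and 1458 after guadecitabine. Both the highest and the lowest of the 6 libraries were guadecitabine libraries. The log2 fold change was 0.01 (SE 0.184, adjusted p = 0.979), with a 95% interval from -0.41 to 0.42. The sign depended on the library, with -0.22 without guadecitabine replicate 1 and 0.17 without guadecitabine replicate 2, neither of which passed the threshold. AIM2 and IFI16 belong to the PYHIN gene cluster. The other cluster members in the table, MNDA and PYHIN1, had at most 9 counts in each library other than vehicle replicate 3 and too few reads to be tested.

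Of the NLR sensors, NLRP3 responds to potassium loss and other signs of cell damage, and in myeloid cells its transcription is induced by priming signals. NLRP3 (NM_001127461, chr1:247579458-247612406, plus strand) had 51, 54 and 86 counts in the 3 vehicle libraries and 180, 83 and 146 in the 3 guadecitabine libraries. The normalized counts were 48.6, 57.1 and 66.5 in vehicle and 146, 169 and 148 after guadecitabine. The groups were far apart, and the log2 fold change was 1.41 (SE 0.204, adjusted p = 0.000709), higher than in 94.5% of all genes tested. Of the 86 counts in vehicle replicate 3, about 30.7 would be given by the background per kb of that library. Without this library the log2 fold change was 1.53, and 1.31 to 1.53 was the range with each library left out, with 6 of 6 fits past the threshold. Tested against a change of at least 2-fold, NLRP3 did not pass (adjusted p = 0.139), while without such a threshold its adjusted p under the alternatives ran from 1.19e-06 to 0.00611. Its level remained low after guadecitabine, at 35.7 ± 3.00 reads per kb (SD, n = 3).

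NLRP1, a sensor of proteases and double-stranded RNA that is important in epithelial cells, moved the other way. NLRP1 (NM_001033053, chr17:5404719-5487832, minus strand) had normalized counts of 364, 430 and 458 in vehicle and 311, 340 and 317 after guadecitabine. The guadecitabine libraries all lay below the vehicle libraries, and the log2 fold change was -0.37 (SE 0.124, adjusted p = 0.0401). The call was close to the threshold and passed in 2 of the 6 fits with 1 library left out, with adjusted p from 0.0433 to 0.136. It was lost without vehicle replicate 2 or 3 and without guadecitabine replicate 1 or 3, and with DESeq2 its adjusted p was 0.0526, within a range of 0.0379 to 0.136 over all alternatives other than the 2-fold threshold.

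PYCARD encodes ASC, the adaptor through which AIM2, NLRP3 and other sensors reach caspase-1. PYCARD (NM_013258, chr16:31212807-31214097, minus strand) had 340, 316 and 365 counts in vehicle and 204, 126 and 218 after guadecitabine. Its normalized counts were 324, 334 and 282 in vehicle and 165, 257 and 220 after guadecitabine, without overlap. The log2 fold change was -0.57 (SE 0.173, adjusted p = 0.0296). The adaptor was well expressed before treatment, above 85.5% of all transcripts, and remained above 79.8% afterwards. The call was lost without vehicle replicate 1, vehicle replicate 2 or guadecitabine replicate 3, with adjusted p from 0.0131 to 0.101 over the 6 fits. The deposited length counted for PYCARD was 456 bp, while the nearest GENCODE transcript has 696 bp of exon, so its level per kb depends on which length is used.

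The sensors AIM2 and NLRP3 and their adaptor moved in opposite directions. The ratio of AIM2 to PYCARD, in reads per kb, was 0.145, 0.162 and 0.186 in the vehicle libraries and 0.544, 0.288 and 0.344 in the guadecitabine libraries. The lowest guadecitabine library was above the highest vehicle library. The ratio of NLRP3 to PYCARD went from 0.0196 ± 0.00471 to 0.0778 ± 0.0133 (SD, n = 3 each). These ratios were computed after the values of the single genes were seen and were not tested.

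Of the inflammatory caspases, CASP4 showed the largest change among the members. CASP4 (NM_001225, chr11:104813594-104839325, minus strand) had 242, 234 and 349 counts in vehicle and 1364, 471 and 854 after guadecitabine. In normalized counts the vehicle libraries held 231, 247 and 270 and the guadecitabine libraries 1106, 960 and 863. Each guadecitabine library was more than 3 times as high as each vehicle library, and the log2 fold change was 1.97 (SE 0.129, adjusted p = 7.25e-06). This change was higher than that of 96.2% of the genes tested, and 1.13% of them had a smaller p. It passed in 6 of 6 fits with 1 library left out, and it was the one member that passed against a change of at least 2-fold. Per kb, CASP4 rose from 189 ± 14.9 to 740 ± 92.6 reads (SD, n = 3) and so from the fifth to the first place among the 9 genes, although its guadecitabine libraries overlapped those of GSDMD and IFI16.

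CASP1, the caspase at the centre of the canonical inflammasome, was near the limit of detection. CASP1 (NM_001223, chr11:104896237-104905884, minus strand) had 4, 2 and 27 counts in vehicle and 7, 5 and 3 counts after guadecitabine. The 27 counts were those of vehicle replicate 3, where the background per kb would give about 9.37. CASP1 did not pass the filter on low counts and was not tested, and a difference was not detectable at this depth. Without the filter its log2 fold change was -0.47 with a standard error of 1.38 (adjusted p = 0.825), and the adjusted p ran from 0.467 to 0.903 over the fits that kept it. The exons of CASP1 share 118 stretches of 50 bases with CARD16, its decoy without a protease domain, and 87.7% of the CASP1 stretches occurred once in the genome. How reads from shared stretches were counted depends on read length and on the handling of multi-mapping reads, which are not given.

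CASP1 and CASP4 lie in the same cluster on chromosome 11 with CASP5 and CARD16. CASP5, the closest relative of CASP4, had 7, 3 and 27 counts in vehicle and 18, 2 and 11 after guadecitabine (log2 fold change -0.0033, SE 0.866, adjusted p = 0.999). Without vehicle replicate 3 its log2 fold change was 1.13 (SE 0.593, adjusted p = 0.151), so the value near 0 rested on that library. CARD16 had 12, 13 and 33 counts in vehicle and 16, 8 and 13 after guadecitabine (log2 fold change -0.28, SE 0.561, adjusted p = 0.724), and without vehicle replicate 3 its log2 fold change was 0.13 (adjusted p = 0.81). With and without vehicle replicate 3, CASP4 was the one gene of the cluster with a called change, and the neighbours had at most 33 counts in any library. CASP4 shared 10 stretches of 50 bases with CASP5, and 98.9% of its stretches were unique, so that few of its reads could come from the other genes.

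**Figure D3:**
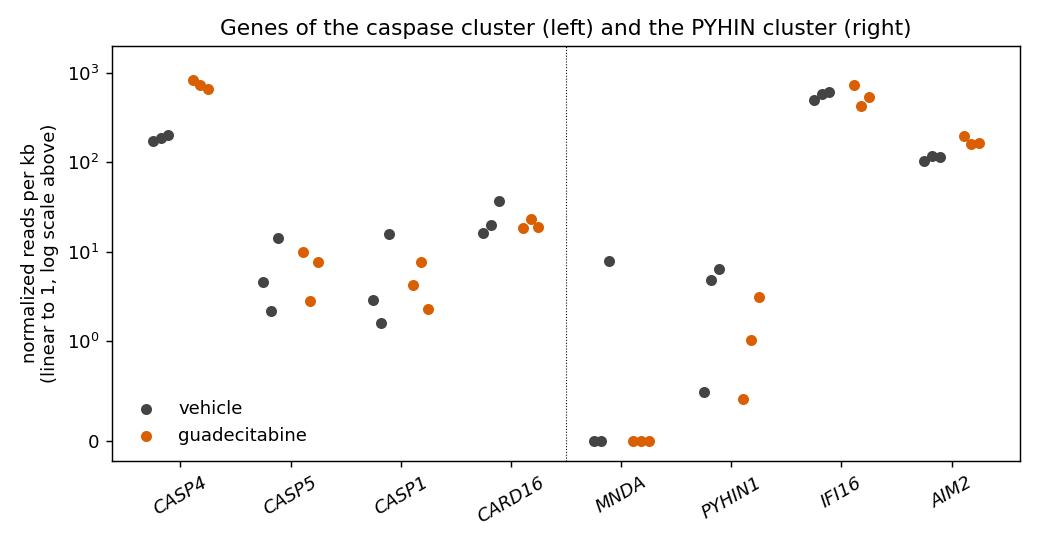
Normalized reads per kb (linear up to 1, log scale above) in each library for the genes of the caspase cluster, left of the dotted line, and of the PYHIN cluster, right of it, in vehicle (grey) and guadecitabine (orange). CASP4 lay above its neighbours CASP5, CASP1 and CARD16 in each library, and MNDA was at 0 in 5 of the 6 libraries.

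The gasdermins form the pore. GSDMD (NM_001166237, chr8:144635557-144645231, plus strand) is cleaved by caspase-1 and caspase-4. Its normalized counts were 2003, 2259 and 1418 in vehicle and 1142, 2061 and 1459 after guadecitabine. The groups overlapped, with a wide spread inside both, and the log2 fold change was -0.29 (SE 0.229, adjusted p = 0.349) with a 95% interval from -0.81 to 0.23. Without guadecitabine replicate 2 it was -0.54 and without guadecitabine replicate 1 it was -0.11, and neither passed the threshold. The exons of GSDMD and PYCARD have the highest GC content of the members, at 64.6% and 63.4%, and those of IFI16 and AIM2 the lowest, at 40.3% and 40.7%. Guadecitabine replicate 2, the shallowest library, had the most normalized reads of GSDMD and PYCARD and the fewest of IFI16 and AIM2 within its group. The part of GC content and depth in these differences was not tested.

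DFNA5, or gasdermin E, was the most evenly measured member. DFNA5 (NM_001127454, chr7:24737974-24797639, minus strand) had normalized counts of 1128, 1147 and 1132 in vehicle and 957, 874 and 931 after guadecitabine. The vehicle libraries differed by a coefficient of variation of 0.886%, and the groups did not overlap. The log2 fold change was -0.30 (SE 0.0957, adjusted p = 0.0345). The small size left the call close to the threshold, and it passed in 1 of the 6 fits with 1 library left out, the fit without guadecitabine replicate 1 (adjusted p = 0.0267), with 0.0618 to 0.123 in the other 5. The ratio of DFNA5 to GSDMD was 0.637 ± 0.158 in vehicle and 0.647 ± 0.211 after guadecitabine (SD, n = 3). CASP4 relative to GSDMD, by contrast, went from 0.202, 0.192 and 0.334 to 1.70, 0.818 and 1.04 in the 3 libraries of each group.

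The wider pathway was described with a list of 77 further genes, of which 67 were in the table and 52 were tested. Among these, 19 were higher and 12 lower, or 59.6% called against 37.7% of all genes, with a median log2 fold change of 0.16. The list and its roles were drawn up when earlier results from these data were already known. An excess of calls over all genes may therefore be partly built in, for the list and for each role below. No conclusion about the pathway is drawn from these shares. Of the other sensors, 2 of 8 tested genes were higher and 4 lower, where 19.3% of all genes were higher and 18.4% lower. Among the lower genes, NLRX1 was called in 4 and NLRP2 in 3 of the 6 fits with 1 library left out. CARD8, among the higher genes, was called in 5 of the 6. NLRP10, an NLR protein without the leucine-rich repeats of its relatives, went from 3, 2 and 10 counts to 124, 43 and 115 (log2 fold change 4.48, SE 0.486, adjusted p = 0.000138), with 5.28 without vehicle replicate 3. NAIP, which detects bacterial flagellin for NLRC4, went from 43, 42 and 80 counts to 21, 5 and 10. Its log2 fold change was -1.94 (SE 0.451, adjusted p = 0.00894), and -1.70 without vehicle replicate 3. The call was lost without guadecitabine replicate 3 (adjusted p = 0.0526, the highest of the 6 fits with 1 library left out). NOD1, a sensor of bacterial peptidoglycan, also fell, with a log2 fold change of -0.75, and was called in 6 of these 6 fits. NOD2 was not called with all libraries, with a log2 fold change of 1.33 (SE 0.764, adjusted p = 0.203). Without vehicle replicate 3 the log2 fold change of NOD2 was 2.55 (SE 0.554, adjusted p = 0.00432).

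Of the sensor partners and checkpoints, 3 of 11 were higher and 2 lower, where 19.3% of all genes were higher and 18.4% lower. TXNIP, among the lower genes, was called in 1 of the 6 fits with 1 library left out. GBP5, a guanylate-binding protein that promotes NLRP3 assembly, went from 3, 3 and 21 counts to 179, 53 and 130 (log2 fold change 4.01, SE 0.550, adjusted p = 0.000535). Without vehicle replicate 3 the log2 fold change of GBP5 was 5.37 (SE 0.356). Of the 5 tested decoys and inhibitors, TNFAIP3, the ubiquitin-editing inhibitor of NF-κB signalling and of NLRP3, rose with a log2 fold change of 2.87 (SE 0.181, adjusted p = 5.73e-06). The serpins SERPINB1 and SERPINB9 fell, with log2 fold changes of -0.73 and -0.57.

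Of the caspases outside the inflammasome, CASP8, which starts apoptosis from death receptors and can cleave gasdermin D, rose with a log2 fold change of 0.59 (SE 0.123, adjusted p = 0.00537). Of the other gasdermins, GSDMB and GSDMC were tested and did not pass, with at most 41 counts in a library. For GSDMC this rested on vehicle replicate 3, with 6, 6 and 34 counts in vehicle and 31, 12 and 41 after guadecitabine. The log2 fold change of GSDMC was 1.22 (SE 0.677, adjusted p = 0.188) with that library and 2.33 (SE 0.441, adjusted p = 0.00194) without it, when the groups no longer overlapped. GSDMB went from -0.22 to 0.32 and was not called in either fit. GSDMA and DFNB59 had too few reads to be tested.

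All 5 tested genes of the pores, channels and membrane rupture group passed the threshold, against 37.7% of all genes. Of these, 3 were higher and 2 lower, and KCNK6, among the higher genes, lost its call without vehicle replicate 1. PANX1, the ATP channel that caspases open, rose with a log2 fold change of 1.16 (SE 0.112, adjusted p = 6.93e-05). NINJ1, which ruptures the membrane at the end of pyroptosis, had a log2 fold change of 0.44, but its call was lost without vehicle replicate 1 or 2 and without guadecitabine replicate 2 or 3 (adjusted p of 0.0059 to 0.0973 over the 6 fits). Its relative NINJ2 fell, with a log2 fold change of -1.70. P2RX7, the ATP receptor that activates NLRP3 in myeloid cells, had at most 1 count outside vehicle replicate 3.

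Of the cargo and alarmins, 4 of 6 tested genes were higher and 0 lower, where 19.3% of all genes were higher and 18.4% lower. IL1B, the precursor that caspase-1 matures, went from 26, 21 and 58 counts to 11892, 3615 and 8579 (log2 fold change 8.08, SE 0.252, adjusted p = 8.6e-08), and IL1A from 10, 15 and 22 to 5509, 1787 and 3465. Without vehicle replicate 3 the log2 fold change was 8.50 for IL1B and 8.25 for IL1A. IL18 rose with a log2 fold change of 0.80 and the receptor antagonist IL1RN with 1.44. In the cytosolic DNA sensing group, 3 of 10 were higher and 2 lower. Of these, TMEM173, among the higher genes, was called in 1 of the 6 fits with 1 library left out. TREX1, among the lower genes, was called in 2 of the 6. MB21D1 (cGAS) rose with a log2 fold change of 1.09 (SE 0.111, adjusted p = 9.33e-05), beside AIM2. ENPP1, which degrades the messenger that cGAS makes, fell with a log2 fold change of -0.94.

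**Figure D4:**
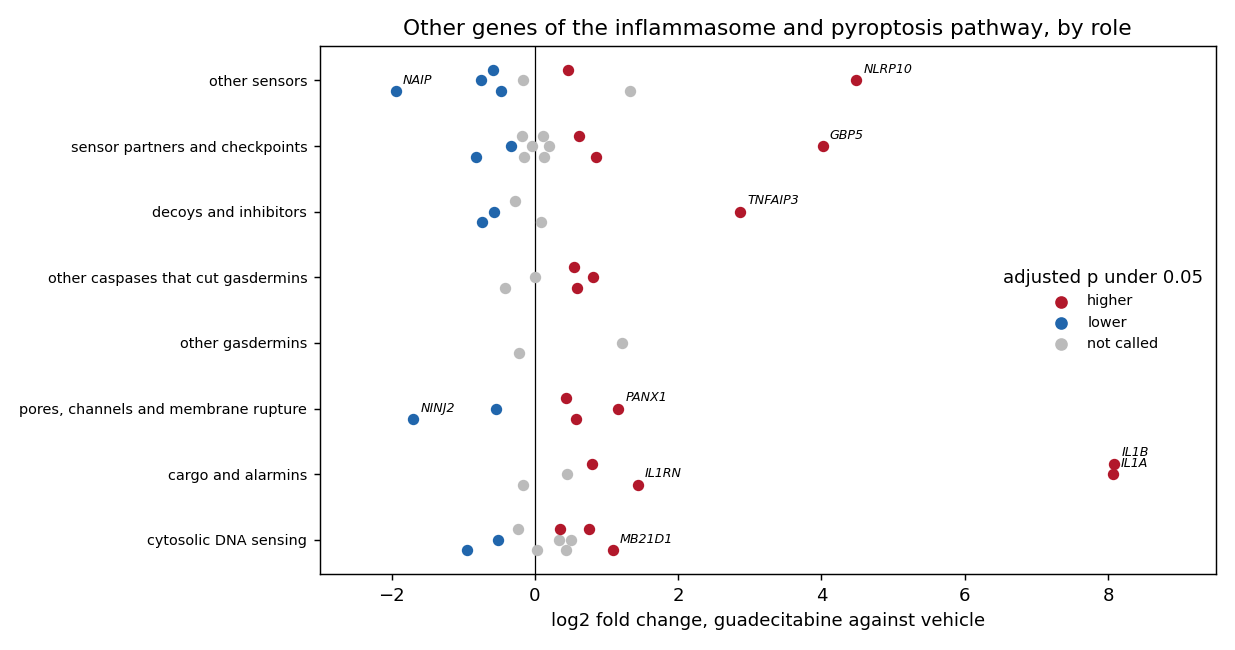
Log2 fold change, guadecitabine against vehicle, of the 52 tested genes of the wider pathway in rows by role, in red for higher, blue for lower and grey for not called at an adjusted p of 0.05. Points are spread within a row for legibility, and genes called with at least a 2-fold change are named, from NAIP at -1.94 to IL1B at 8.08.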

How the data were processed

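The series holds 3 vehicle and 3 guadecitabine RNA-seq libraries, grouped by their titles. The authors aligned reads to hg19 with STAR (version 2.3.1z per the submitters' processing notes), counted exon reads per RefSeq transcript with iRNA-seq and deposited these raw counts with the counted exon length in bp. Columns of the authors' own DESeq2 comparison and of regularized log values were not used.

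The 9 genes and the wider list, with its roles, were chosen with earlier results of these data known. Counts were fitted over all genes with edgeR 4.0.16 in R 4.3.3, using TMM factors, filterByExpr with a minimum count of 10, glmQLFTest and the Benjamini-Hochberg method at 0.05. Each standard error is the absolute log2 fold change over the root of F. The code was tested on simulated data. Normalized counts were scaled to the mean effective library of 17937628 counts. Read length and the handling of multi-mapping reads are not given in the sources used here.

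From the wider list, genes called with at least a 2-fold change and a mean of 20 normalized counts were named, at most 4 per role, and others were named after their values were seen. Some genes of the list are not reported here. DESeq2 1.42.0, other scalings and filters, a 2-fold threshold and leaving out each library were the alternatives tried. Subtracting a background from vehicle replicate 3, and leaving out libraries for single genes of the wider list, were added after seeing the data. Uniqueness of 50-base stretches was counted on GRCh37, the assembly of hg19, with GENCODE release 44 exons.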

Additional observations from a re-analysis of the deposited data

How the results depend on the processing

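CASP4 kept its direction and its call under the 14 alternatives. AIM2 and NLRP3 kept theirs in 13 of 14, the exception being the 2-fold threshold. NLRP1 and DFNA5 kept their direction but lost the call in 9 of 14, and PYCARD in 4 of 14. Among the members, 3 genes were higher under each alternative other than the 2-fold threshold, under which 1 was called, with 1 higher and 0 lower. The number lower was 1 with library totals only, without the filter and with the replicate number as a block (replicate block), where NLRP1 and DFNA5 were lost and 4 members were called in all. Libraries with the same number deviated from their group means with correlations of -0.0375 to 0.0382 across genes, against -0.0497 to 0.0495 for other pairs. The labels do not say whether same-numbered libraries share an experiment. These correlations cannot decide it, since each group mean rests on 3 libraries and that of vehicle includes the background of vehicle replicate 3. Leaving out 1 library gave 3 to 5 members called and 0 to 2 lower, with 0 without vehicle replicate 2 or guadecitabine replicate 3. IFI16, which was not called, changed sign to -0.023 with the replicate block, -0.0046 with DESeq2, -0.0030 with its size factors and -0.022 after background subtraction, an alternative chosen after seeing the data, and with 1 library left out it ran from -0.22 to 0.17. The cause of these differences was not tested. The 2-fold threshold reduced all genes called to 696, of which 435 were higher and 261 lower, and the wider list to 6, of which 5 were higher and 1 lower. Leaving out 1 library moved all calls to 3335 to 5577, of which 1706 to 3002 were higher and 1629 to 2575 lower, the fewest without guadecitabine replicate 3. The wider list had 24 to 32 calls in these fits, of which 24 to 30 were among the 31 called with all libraries. CASP1 had too few counts to be tested. The calls of the 3 lower members, from 1.23-fold for DFNA5 to 1.48-fold for PYCARD, depended on single libraries at 3 against 3.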
